A study of Mus musculus with 12 samples.

Results

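The nuclear genes of the mitochondrial respiratory chain were followed in mouse femoral head cartilage treated with retinoic acid or IL-1α. Members were chosen by gene symbol alone, as the symbols that begin with Ndufa, Ndufb, Ndufc, Ndufs, Ndufv, Uqcr, Cox4 to Cox8 or Atp5, together with Sdha, Sdhb, Sdhc and Sdhd. This rule took 80 of the 34509 symbols on the bead array, carried by 109 of its 46632 probes, and used no measured value. A probe was kept when it was detected above the negative control beads on at least 4 of the 12 arrays, which left 69 members among 14317 genes. Of the 69, 59 were detected on all 12 arrays. The 11 members that were not kept were Ndufb2, Ndufc2, Ndufs1, Sdha, Uqcrfs1, Uqcrq, Cox7b, Cox7b2, Cox8b, Cox8c and Atp5j, and 6 of them were detected on no array. No probe carried the symbols Ndufa4l2, Cox8a, Atp5g1 or Atp5g2.

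The arrays compared 3 culture conditions: untreated, retinoic acid at 10 µM, and recombinant human IL-1α at 10 ng/ml, each for 3 days. Hips came from 21-day-old TS-4/5∆cat mice, in which the catalytic domains of both Adamts4 and Adamts5 are deleted in frame, and 4 hips shared a well. All groups carried this deletion and no wild type was included, so the treatments were measured against untreated mutant tissue only. Each condition had 4 arrays, 2 from the Donut line in batch 1 and 2 from the Gertrude line in batch 2. Line and batch divide the arrays in the same way and cannot be told apart. The labels number the replicates but do not say whether wells held different animals. The methods speak of 3 separate, unpooled mice for each treatment, which does not match 4 arrays, so n counts arrays and the number of animals behind them is not settled. The p-values measure the spread between these arrays, which may in part be technical.

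The respiratory chain lies in the inner mitochondrial membrane, passes electrons from NADH and succinate to oxygen and stores the energy as a proton gradient across that membrane. Complex I takes electrons from NADH, complex II is the succinate dehydrogenase of the tricarboxylic acid cycle, complex III passes electrons to cytochrome c, complex IV reduces oxygen, and complex V uses the gradient to make ATP. Nuclear genes encode most subunits, and a few core subunits come from the mitochondrial genome. Cartilage has no blood vessels, and its chondrocytes are known for relying largely on glycolysis. Several complex IV subunits exist as pairs of isoforms, 1 made in most tissues and 1 largely in heart and skeletal muscle, lung or testis.

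The promoters of 4 members are shown because these genes carry the contrasts described below. Ndufa4 was the member that rose with both treatments, Uqcrc1 and Ndufb8 rose with retinoic acid and hold motifs that the literature ties to respiratory chain genes, and Cox7a1 is the muscle isoform that rose. Each sequence runs 5′ to 3′ from 250 bases before to 50 bases after the RefSeq start on build GRCm38.p6, and capitals mark a match to 1 of the 4 motifs searched. Ndufa4 lies on the minus strand at chr6:11907401-11907700, Uqcrc1 on the plus strand at chr9:108936398-108936697, Ndufb8 on the minus strand at chr19:44555393-44555692 and Cox7a1 on the plus strand at chr7:30183921-30184220.
Ndufa4: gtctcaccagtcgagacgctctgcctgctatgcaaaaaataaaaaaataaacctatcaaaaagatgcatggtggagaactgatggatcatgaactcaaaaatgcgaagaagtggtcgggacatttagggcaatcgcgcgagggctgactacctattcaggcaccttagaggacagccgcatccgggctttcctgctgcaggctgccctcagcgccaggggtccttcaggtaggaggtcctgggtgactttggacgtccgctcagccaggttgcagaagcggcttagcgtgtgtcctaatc
Uqcrc1: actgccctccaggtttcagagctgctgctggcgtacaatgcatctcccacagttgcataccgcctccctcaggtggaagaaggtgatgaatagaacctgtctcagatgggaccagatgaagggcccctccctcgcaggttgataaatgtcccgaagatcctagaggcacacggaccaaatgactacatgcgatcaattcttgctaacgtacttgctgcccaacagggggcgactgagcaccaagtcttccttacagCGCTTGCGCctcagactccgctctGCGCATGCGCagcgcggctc
Ndufb8: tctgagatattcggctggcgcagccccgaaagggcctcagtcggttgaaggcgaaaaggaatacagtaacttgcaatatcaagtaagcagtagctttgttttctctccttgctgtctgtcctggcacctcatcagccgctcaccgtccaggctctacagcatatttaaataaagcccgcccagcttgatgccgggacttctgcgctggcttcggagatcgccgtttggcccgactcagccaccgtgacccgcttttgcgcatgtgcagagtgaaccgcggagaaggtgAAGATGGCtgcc
Cox7a1: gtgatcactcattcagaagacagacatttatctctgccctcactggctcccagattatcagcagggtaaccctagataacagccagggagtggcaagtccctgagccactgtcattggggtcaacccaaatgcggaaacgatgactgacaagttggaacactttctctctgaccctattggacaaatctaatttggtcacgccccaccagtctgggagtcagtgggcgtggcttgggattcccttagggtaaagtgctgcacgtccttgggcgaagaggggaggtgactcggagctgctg
The capitals in Uqcrc1 are matches to the core of the site of NRF1, a factor known for binding respiratory chain promoters, and those in Ndufb8 are a match to a YY1 site. The windows of Ndufa4 and Cox7a1 held none of the 4 motifs.

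RefSeq windows of 300 bases were at hand for 65 of the 80 members. The entries of Atp5a1, Cox4i1, Cox4i2, Cox4nb, Cox6a2, Cox6c, Cox8c, Ndufa2, Ndufb9, Ndufs1, Sdhc, Uqcrb, Uqcrc2 and Uqcrq were among those missing. Both strands were searched. The NRF1 core GCGCANGCG stood in 18 of the 65 windows (27.7%), against 7.03% of the windows of all 27025 symbols and 14.4% of those of 6828 genes kept on the array. This motif is nearly its own reverse complement, so matches on the 2 strands can overlap by all but 1 base, as in Uqcrc1. The YY1 motif AAGATGGC stood in 10 windows (15.4%), against 3.19% of all symbols and 4.98% of kept genes. The ERR site TCAAGGTCA, bound by oestrogen-related receptors, stood in 2 windows (3.08%), against 0.466% and 0.366%. The ETS motif bound by GABPA, CCGGAAGT, stood in 3 windows (4.62%), against 4.31% and 8.19%. The median GC content of the windows was 58.3% for members and 60.7% for kept genes. Of the 16 members with a window that rose, 5 held any of the 4 motifs and 2 of these the NRF1 core (Uqcrc1 and Atp5l), whereas 21 of the 39 that were not called held one, 14 of them the NRF1 core.

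The treatments were visible in their usual target genes. With retinoic acid, Cyp26b1, which degrades retinoic acid, was 3.94 higher on the log2 scale. Its relative Cyp26a1 was not detected on any untreated array and was at least 19.2-fold higher, and the receptor gene Rarb, detected on 1 of 4 untreated arrays, was detected on all 4 retinoic acid arrays. With IL-1α, Nos2, the inducible nitric oxide synthase, was not detected on any untreated array and was at least 14.1-fold higher, and Lcn2 was 1.04 higher on the log2 scale. Such bounds set the brighter group against the lowest signal still detected on the dimmer arrays. Arrays of 1 condition and batch correlated at 0.983 to 0.995 over kept probes, arrays of 1 condition in different batches at 0.868 to 0.902. Detected probes numbered 13786 to 14965 per array in batch 1 and 16732 to 19485 in batch 2, and detected members 60 to 64 and 68 to 72. Chondrocyte marker probes were bright in untreated tissue, as were the erythroid and neutrophil markers given below. Of 10 chondrocyte markers on the array 8 were kept, with 1 detected on no array. These markers moved with the treatments. All 8 fell with retinoic acid (median -2.86, led by Matn1 at -5.0 and Acan at -4.22) and 6 fell with IL-1α (median -1.01), and the log2 of their summed level was 15.93 to 16.18 in untreated arrays, 15.11 to 15.53 with IL-1α and 13.32 to 13.92 with retinoic acid. Markers of other cells moved too: 4 of 5 macrophage or osteoclast markers rose with retinoic acid (summed log2 level 11.95 to 12.61 untreated and 12.69 to 13.27 treated), 3 of 5 endothelial markers fell with IL-1α (10.89 to 11.20 untreated and 9.85 to 10.24 treated), and 3 of 4 kept osteoblast markers fell with either treatment (13.24 to 13.50 untreated, 11.37 to 12.26 with IL-1α and 11.44 to 12.07 with retinoic acid). With both treatments the 2 kept adipocyte markers fell, as did 3 of 4 fibroblast or synovium markers and the brown fat marker Cidea. The remaining fibroblast or synovium marker rose with retinoic acid (0.95). With IL-1α, 2 of 5 macrophage or osteoclast markers rose and 1 fell. Of 5 neutrophil markers 3 fell with retinoic acid, and all 4 cell cycle markers fell with IL-1α and stood above the IL-1α level under retinoic acid. In untreated tissue the summed log2 level was 14.41 to 14.77 for erythroid markers and 13.08 to 13.67 for neutrophil markers. With retinoic acid the erythroid sum was 14.21 to 14.96, above that of the chondrocyte markers. In such bulk RNA, fewer cells of a type and less RNA per cell cannot be told apart. The part of changed cell make-up in the results below was not tested.

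Most respiratory chain genes were not called with retinoic acid, and among those that were, rises outnumbered falls. Of the 69 members kept, 17 rose and 4 fell at a Benjamini-Hochberg adjusted p under 0.05 in the limma fit, that is 24.6% and 5.8%, where 18.6% and 18.1% of all genes tested rose and fell. At an unadjusted p under 0.05 the counts were 26 and 6. The share of all genes at an unadjusted p was not counted, so here and below such counts show no excess. The median log2 difference over members was 0.21, against 0.01 over all genes, and 51 of 69 members were above 0. Of the 17 risers, 16 were higher in all 4 pairings of batch and replicate number. This describes genes already called by a fit on the same arrays and adds no support to the calls. The rises lay between 0.36 and 0.79 on the log2 scale and the falls between -0.44 and -1.57. Over both batches the share that rose was modestly above the background and the share that fell was below it. In batch 2 alone the share that rose was not above the background, as given below. Over the 20 core subunits listed by name, of which 17 were kept, 6 rose and 1 fell, with a median of 0.28.

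**Figure D1:**
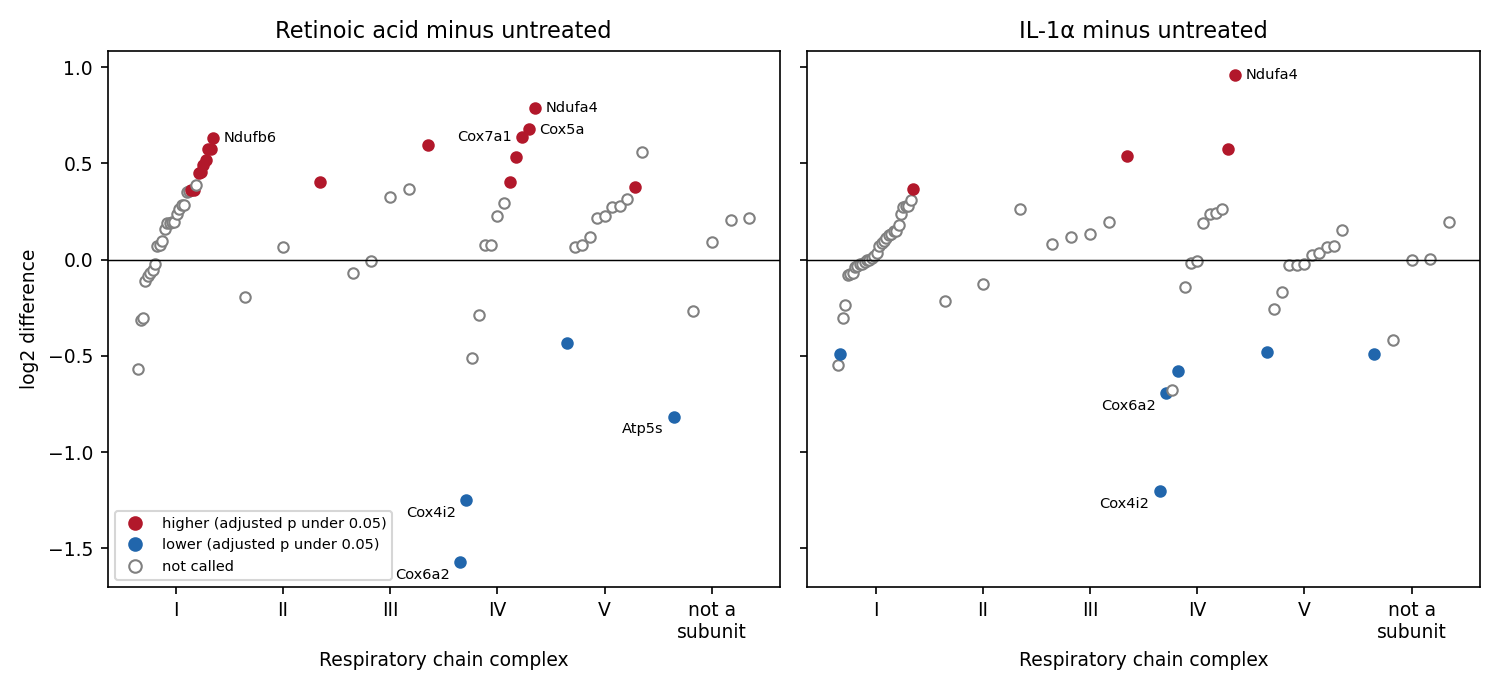
Log2 difference from untreated (y axis) of each of the 69 kept members, sorted within its complex (x axis), for retinoic acid on the left and IL-1α on the right. Red points passed the limma test upward and blue points downward at an adjusted p under 0.05, and open points did not pass. With retinoic acid 9 complex I genes passed upward and none downward, and complex IV held both the largest rise, Ndufa4 at 0.79, and the largest fall, Cox6a2 at -1.57.

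Complex I held 32 kept members, and 9 rose and none fell with retinoic acid (median 0.22, 24 above 0). At an unadjusted p under 0.05, 13 were higher and 2 lower. Among the 6 kept core subunits, which carry the redox centres, Ndufv1 and Ndufs8 rose. Ndufv1, the subunit that binds NADH, read 11.23 and 11.60 in untreated batch 1 and 10.99 and 10.45 in untreated batch 2, and with retinoic acid 11.97, 12, 11.30 and 11.29 in the same order. The retinoic acid arrays were above the untreated arrays within each batch, although the groups overlapped over both batches (0.57 ± 0.123 SE, n = 4, limma adjusted p = 0.00265). Ndufs8, an iron-sulphur subunit, read 10.72, 10.77, 9.97 and 9.74 untreated and 11.65, 11.41, 10.14 and 10.30 with retinoic acid, in the same order of arrays. The groups were again apart within each batch, with a wider gap in batch 1 (0.57 ± 0.137, adjusted p = 0.0054). The core subunits Ndufs3 and Ndufs7 were at 0.35 and 0.28 and did not pass with their main probes, and Ndufv2 was at -0.31. The second kept probe of Ndufs3 was called higher (adjusted p = 0.0311).

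The other 7 complex I risers were accessory subunits, which surround the catalytic core: Ndufb6 at 0.63, Ndufb7 at 0.52, Ndufb8 at 0.49, Ndufa3 at 0.46, Ndufs4 at 0.45, and Ndufa10 and Ndufa12 at 0.36 each. Ndufb6 had the largest of these rises (SE 0.154, adjusted p = 0.00606). It read 11.58, 11.12, 10.89 and 10.84 untreated against 12.17, 12.22, 11.20 and 11.37 with retinoic acid, apart within each batch. For Ndufs4, which is best known from Leigh syndrome, every retinoic acid array (10.93 to 11.12) was above every untreated array (10.32 to 10.69). Ndufb7 was the least secure of them, with an adjusted p of 0.0486, and it did not pass in 8 of the 12 fits that left out 1 array. The 19 accessory subunits that were not called ranged from -0.57 (Ndufb10, adjusted p = 0.0786) to 0.39 (Ndufs6).

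Complexes II and III gave 1 riser each with retinoic acid and no fall. Sdhc, a membrane anchor of complex II, rose by 0.40 (SE 0.107, adjusted p = 0.0105), from 10.28 to 10.69 on untreated arrays to 10.73 to 11.04 on retinoic acid arrays, which did not overlap. Sdhb was at 0.07 and Sdhd at -0.20. Uqcrc1, a core protein of complex III, read 11.21, 11.29, 10.14 and 9.93 untreated, 11.27, 11.09, 10.38 and 10.36 with IL-1α and 11.74, 11.80, 10.66 and 10.75 with retinoic acid. The retinoic acid arrays were the highest within each batch (0.60 ± 0.124, adjusted p = 0.00218). Its partner Uqcrc2 was at -0.07. The accessory subunits Uqcr and Uqcrb were at 0.37 and 0.33 without passing.

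Complex IV had the widest spread with retinoic acid, from -1.57 to 0.79. Of the 9 kept subunits common to most tissues, 4 rose and none fell with retinoic acid, and of the 4 kept tissue-restricted isoforms 1 rose and 2 fell. Ndufa4, named for complex I but now counted with complex IV, read 11.41, 11.63, 11.42 and 11.29 untreated and 12.32, 12.42, 12.20 and 11.96 with retinoic acid. No retinoic acid array reached down to an untreated one, and the rise was similar in both batches (0.79 ± 0.115, adjusted p = 0.000142). Cox5a read 9.87, 9.95, 10.49 and 10.59 untreated and 10.74, 10.77, 11.04 and 11.07 with retinoic acid, likewise without overlap (0.68 ± 0.114, adjusted p = 0.000468). Cox5b was 0.54 higher (adjusted p = 0.00398) and Cox6b1 0.41 higher (adjusted p = 0.0245), and the second kept probe of each was also called higher. Cox4i1 (0.07), Cox6a1 (0.30), Cox7c (0.23), Cox7a2 (-0.29) and Cox6c (-0.51) did not pass.

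The largest falls with retinoic acid were in isoform genes of complex IV. Cox6a2, the isoform of heart and skeletal muscle, read 8.53 and 8.61 in untreated batch 1 and 7.28 and 7.08 in untreated batch 2. It read 6.69, 6.88, 5.83 and 5.81 with retinoic acid, below every untreated array (-1.57 ± 0.148, adjusted p = 2.89e-06). With IL-1α it read 7.61, 7.57, 6.56 and 6.98, between the other conditions in each batch (-0.69, adjusted p = 0.00367). Cox4i2, the isoform known from lung and from low oxygen, read 10.86, 10.78, 8.39 and 8.63 untreated, 9.23, 9.23, 7.63 and 7.75 with IL-1α, and 9.48, 9.50, 7.17 and 7.50 with retinoic acid. Both treatments were below untreated in each batch, by 1.25 for retinoic acid (adjusted p = 3.7e-05 for a difference of -1.25) and by a similar amount for IL-1α (-1.20, adjusted p = 9.99e-05). Its ubiquitous counterpart Cox4i1 was at 0.07 and -0.01.

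Cox7a1, the other muscle isoform, went the opposite way from Cox6a2. It read 6.63, 7.07, 5.73 and 5.44 untreated, 6.64, 6.70, 5.46 and 5.49 with IL-1α, and 7.72, 7.71, 6.12 and 5.87 with retinoic acid. The retinoic acid arrays were the highest in both batches (0.64 ± 0.143, adjusted p = 0.00346), with the IL-1α difference at -0.14. The common isoform Cox7a2 was at -0.29 with retinoic acid and fell with IL-1α (-0.58, adjusted p = 0.00906), but it was not detected on the 2 IL-1α arrays of batch 1, where the fall was at least 1.22-fold. Cox8b, a further muscle isoform, was detected on 3 arrays only and not kept. Skeletal muscle markers also moved: of 4 kept of 11 on the array, 2 fell with retinoic acid (Tnni2 at -3.06 and Tnnt3 at -1.45) and 3 with IL-1α. Their summed level was 10.59 to 11.53 (log2) untreated, 9.21 to 9.48 with IL-1α and 8.80 to 9.37 with retinoic acid, and Ckm, Myh1, Myh2 and Mb were detected on no array. Of 3 kept cardiac or slow muscle markers, 1 rose with each treatment and 0 fell. The summed level of the 5 on the array was 7.71 to 8.71 (log2) untreated, 7.85 to 9.07 with IL-1α and 7.78 to 8.99 with retinoic acid. The part of muscle tissue in the Cox6a2 and Cox7a1 values was not tested.

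**Figure D2:**
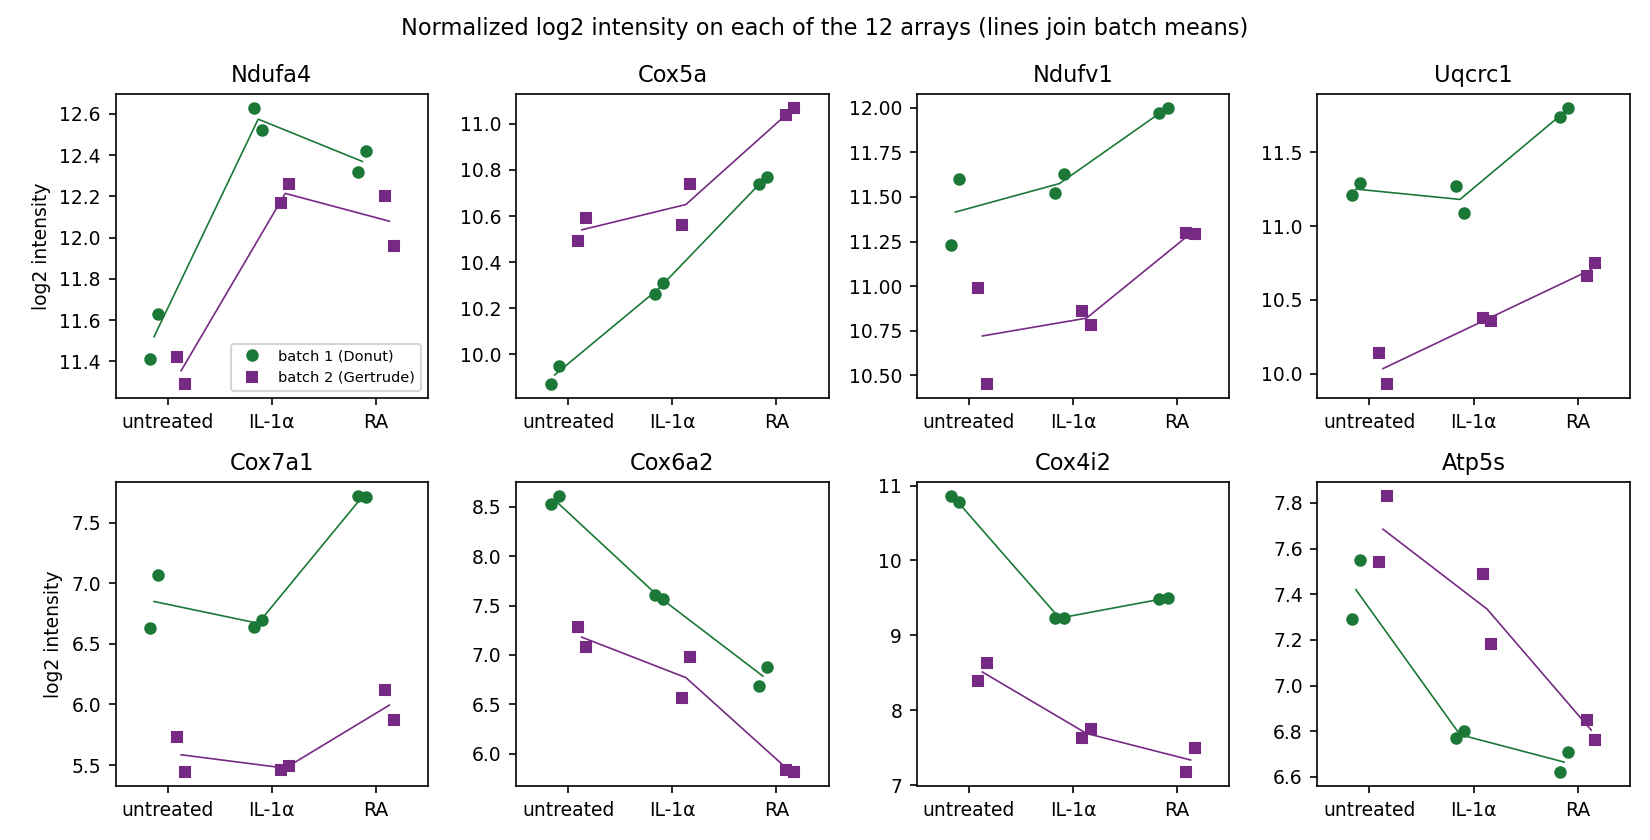
Normalized log2 intensity (y axis) of 8 members on each of the 12 arrays by condition (x axis), with green circles for batch 1 (Donut line), purple squares for batch 2 (Gertrude line) and lines through the batch means. Ndufa4 is high with both treatments, Cox5a, Ndufv1, Uqcrc1 and Cox7a1 are highest with retinoic acid in each batch, and Cox6a2, Cox4i2 and Atp5s are lower with both treatments.

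In complex V, 1 of 11 members rose and 1 fell with retinoic acid, although 10 lay above 0 (median 0.23). The 6 kept members of the membrane part and stalk were all above 0, from 0.22 to 0.56, and Atp5l, subunit g, passed (0.38, adjusted p = 0.046). Atp5g3, which encodes the proton-carrying ring, was at 0.32 (adjusted p = 0.0539) and Atp5k at 0.56 (adjusted p = 0.0701). Of the catalytic head, Atp5b was at 0.23 and Atp5c1, the rotating gamma shaft, fell by 0.44 on the log2 scale (adjusted p = 0.0337 for a difference of -0.44). Atp5c1 read 11.80, 12.07, 11.42 and 12.04 untreated and 11.27, 11.38, 11.60 and 11.32 with retinoic acid, so 1 of the 4 pairings went the other way, and it did not pass in 6 of the 12 fits that left out 1 array.

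Of the kept members, 5 carry a matching name without being subunits, namely the assembly factors Ndufaf1 and Ndufa12l, Cox7a2l, which helps to join complexes III and IV, Cox4nb, which belongs to a complex of the endoplasmic reticulum, and Atp5s, also called factor B. Of these, Atp5s fell with retinoic acid. It read 7.29, 7.55, 7.54 and 7.83 untreated, 6.77, 6.80, 7.49 and 7.18 with IL-1α and 6.62, 6.71, 6.85 and 6.76 with retinoic acid. The retinoic acid arrays did not overlap the untreated ones (-0.82 ± 0.134, adjusted p = 0.000371), and the IL-1α fall was -0.49 (adjusted p = 0.0154). It did not pass for IL-1α in 4 of the 12 fits that left out 1 array.

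IL-1α moved few respiratory chain genes. With IL-1α, 4 rose and 6 fell of 69 (5.8% and 8.7%), where 15.1% and 15% of all genes did, and the median was 0.02 against 0.01 over all genes. At an unadjusted p under 0.05 the counts were 8 and 9. Ndufa4 had the largest rise, 0.96 (SE 0.115, adjusted p = 5.68e-05), with IL-1α arrays at 12.63, 12.52, 12.17 and 12.26, all above the untreated ones. Cox6b2, the testis isoform of subunit 6b, rose by 0.58 (adjusted p = 0.00714), Uqcrb of complex III by 0.54 (adjusted p = 0.0154) and Ndufs5 of complex I by 0.37 (adjusted p = 0.038). Cox6b2 was dim, at 5.04 and 5.08 on the untreated arrays of batch 2, and detected on 3 of 4 untreated arrays. Besides Cox4i2, Cox6a2, Cox7a2 and Atp5s, described above, the falls were Ndufv2, an iron-sulphur subunit of complex I, at -0.49 (adjusted p = 0.0119) and Atp5c1 at -0.48 (adjusted p = 0.026). Ndufs5 did not pass in 8 of the 12 fits that left out 1 array, Atp5c1 in 6 and Uqcrb in 4. Complex II had no call in either direction (1 higher and 0 lower at an unadjusted p under 0.05).

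Both treatments were measured against the same untreated arrays, so their calls are given side by side only. Ndufa4 was called higher in both, and Cox6a2, Cox4i2, Atp5c1 and Atp5s lower in both. With retinoic acid alone 16 members were called higher, with IL-1α alone 3 were called higher and 2 lower, and 43 were called in neither. No member was called in opposite directions.

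The direct comparison of retinoic acid with IL-1α asks which genes tell the treatments apart, the contrast the study was built around. Of the members, 12 were higher with retinoic acid and 2 lower (17.4% and 2.9%), where 16.1% and 16.4% of all genes were, and the median was 0.15 against -0.03. The share that was higher was thus close to the background, and the share that was lower was below it. In complex I, 5 genes were higher: Ndufb7 (0.82, adjusted p = 0.00477), Ndufs8 (0.59, adjusted p = 0.00534), Ndufv1 (0.45), Ndufs4 (0.44) and Ndufb8 (0.34). Uqcrc1 was 0.46 higher. In complex IV, Cox7a1 (0.78, adjusted p = 0.000929), Cox5b (0.55, adjusted p = 0.00364) and Cox5a (0.44) were higher, and in complex V Atp5g3 (0.34) and Atp5k. The fitted difference of Atp5k (0.72, adjusted p = 0.0253) rests in part on 2 IL-1α arrays of batch 1 where it was not detected. Cox4nb was 0.63 higher (adjusted p = 0.00688). The 2 lower members were the isoform genes Cox6a2 (-0.88, adjusted p = 0.00049) and Cox6b2 (-0.50, adjusted p = 0.0134). Cox6b2 did not pass in 3 of the 12 fits that left out 1 array, Atp5k in 4, Atp5g3 in 8, and Cox5a and Uqcrc1 in 1 each. Ndufa4 did not pass (-0.17 ± 0.115). Without the first retinoic acid array of batch 1, 6 members were called higher, where 13.2% of all genes were. Without the second IL-1α array of batch 1, 7 members were called higher, where 13.4% of all genes were.

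The shift of the members as a whole differed in size between arrays. Relative to the untreated mean of its batch, the median over 69 members was 0.26 and 0.27 on the retinoic acid arrays of batch 1 and 0.04 and 0.19 on those of batch 2. On the IL-1α arrays the medians were 0.02 and 0.04 (batch 1), then -0.02 and 0.13 (batch 2). The retinoic acid medians were above those of IL-1α in batch 1 and overlapped them in batch 2. Within batch 1, 24 members rose and 6 fell with retinoic acid (median 0.27), where 17.8% and 18.4% of all genes did. Within batch 2 the test called 8 up and 5 down (median 0.11), where 15.1% and 14.7% of all genes did. The share of members that rose was thus below the background in batch 2. In the direct comparison with IL-1α, batch 1 alone gave 23 higher and 4 lower (17.7% and 18.1% of all genes), batch 2 alone 1 of each (13.5% and 12.7% of all genes).

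**Figure D3:**
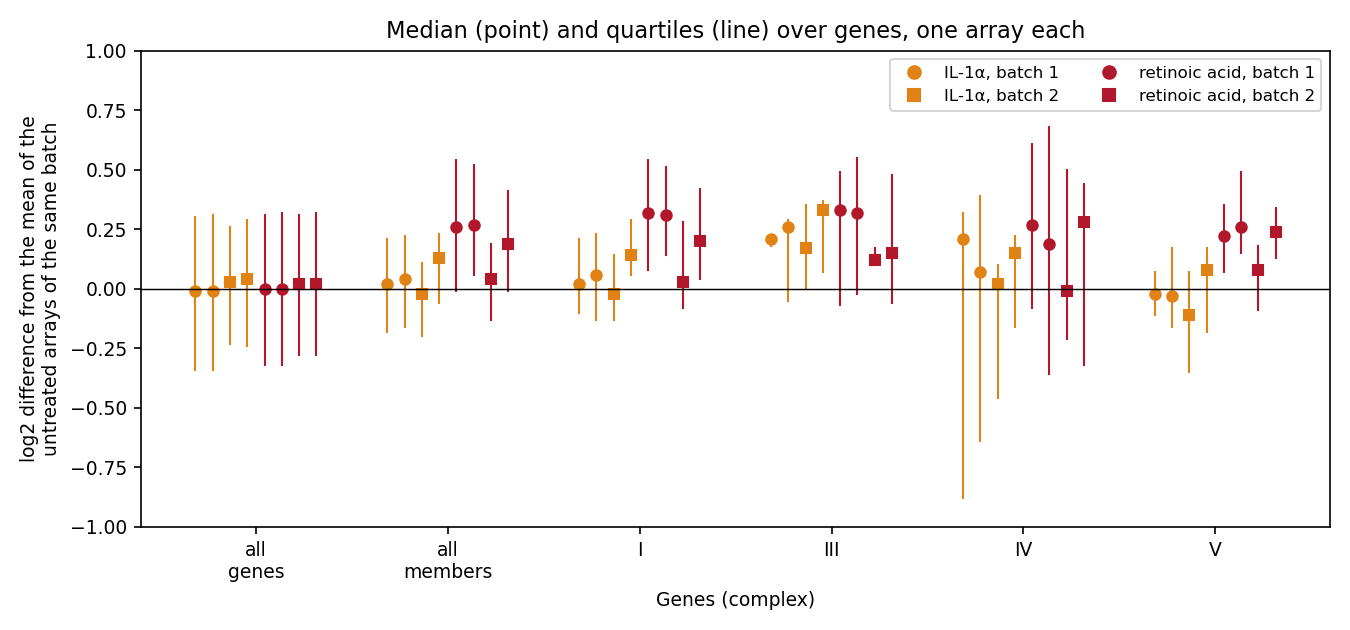
Median (point) and quartiles (line) over genes of the log2 difference from the untreated mean of the same batch (y axis), for each treated array, over all 14317 genes, all 69 members and the members of complexes I, III, IV and V (x axis). Orange marks IL-1α and red retinoic acid, circles batch 1 and squares batch 2. The all-gene medians lie close to 0, and the member medians with retinoic acid run from 0.04 to 0.27.

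The difference in effect between batches was tested directly. For retinoic acid against untreated no member passed (0 higher and 7 lower in batch 2 at an unadjusted p under 0.05), where 2.7% of all genes did in either direction, and for IL-1α none passed (7 and 0), where 4.57% did. For retinoic acid against IL-1α 3 members passed, all with a lower difference in batch 2, where 8.91% of all genes passed. These were Cox4nb (1.02 in batch 1 and 0.24 in batch 2), Ndufb10 (0.57 and -0.61) and Atp5k. Atp5k was not detected on either IL-1α array of batch 1, where it was at least 1.92-fold higher with retinoic acid, and its difference in batch 2 was 0.08.

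More members differed between the batches than between treatments. Of the 69 members, 22 were higher and 32 lower in batch 2 (31.9% and 46.4%), where 29.7% and 46.3% of all genes were, so the members followed the background. This split rests on the quantile scaling. With arrays scaled to one median it was 37 higher and 10 lower (56.6% and 8.46% of all genes), and with normalization within each batch 44 higher and 6 lower (74.2% and 4.81% of all genes). Cox4i2 (-2.0) and Cox7a1 (-1.39) had the largest differences downward. Upward, 4 members were detected on none of the 6 arrays of batch 1 and on all 6 of batch 2, for which only a lower bound holds: Ndufa6 was at least 9.2-fold higher, Sdhd at least 4.21-fold, Ndufb9 at least 3.04-fold and Ndufb4 at least 1.2-fold. Over all genes, 731 of 14317 (5.11%) had this pattern and 31 (0.217%) the reverse, which no member had. Cox6c (2.66), Atp5a1 (2.36), Ndufa12l (2.21), Ndufb5 (2.10) and Cox7a2 (2.05) were also higher in batch 2, with Atp5a1 detected on 1 of 6 arrays of batch 1 and Cox7a2 on 4.

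**Figure D4:**
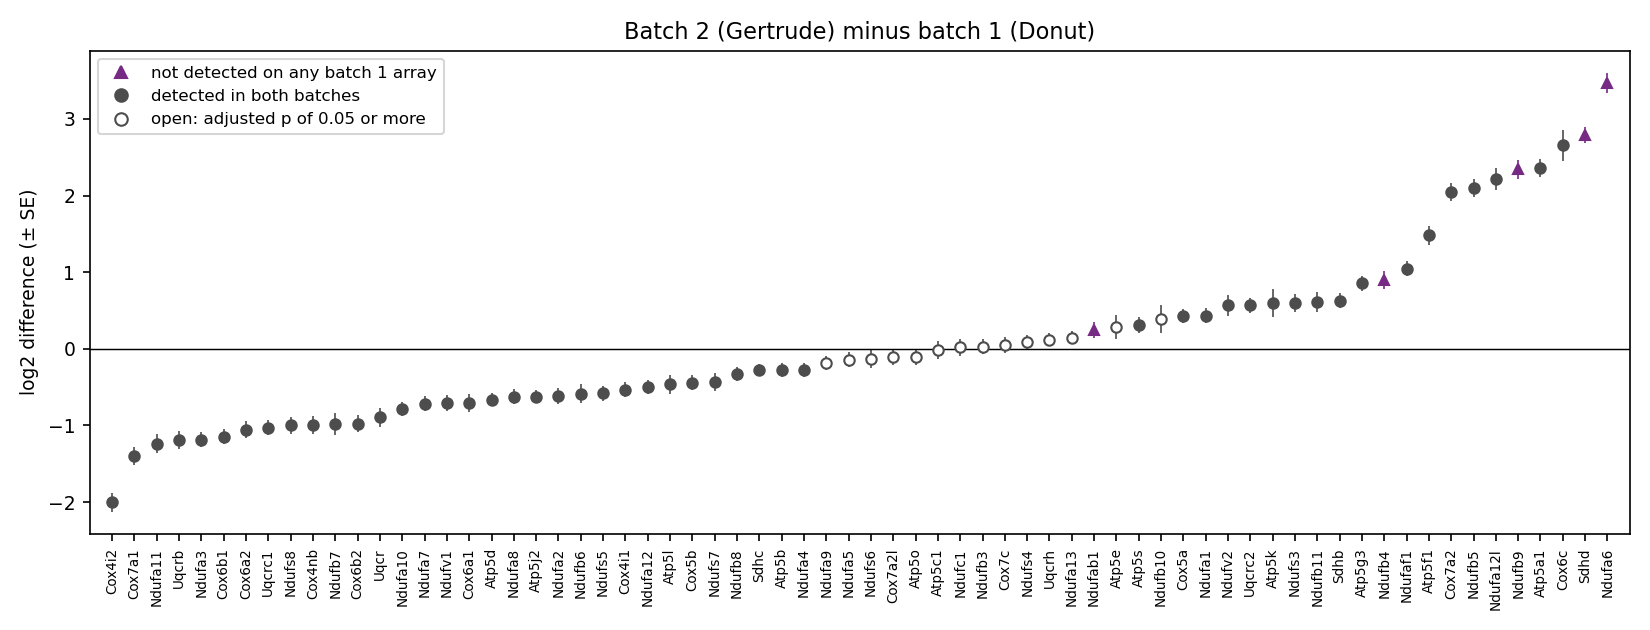
Log2 difference between batch 2 (Gertrude line) and batch 1 (Donut line) for 68 of the 69 kept members (x axis), with the standard error from the limma fit as a line. Open points did not pass at an adjusted p of 0.05, and triangles mark members detected on no batch 1 array, whose fitted difference is no bound. The values run from -2.0 (Cox4i2) to 3.47 (Ndufa6).

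For 12 members the array had more than 1 kept probe, and the value given is that of the probe with the highest mean. In no treatment comparison were probes of 1 gene called in opposite directions, but several disagreed. Ndufs4 was 0.45 with its main probe under retinoic acid, and the others were at -0.07 and -0.31 without passing, 1 of them lower with IL-1α (-0.52, adjusted p = 0.0169). The batch difference of those probes was 2.28 and 2.37, against 0.09. The second probe of Ndufb8 was at -0.40 with retinoic acid (adjusted p = 0.25) and -0.90 with IL-1α (adjusted p = 0.0174). The second probe of Ndufa10, dim with a mean of 5.07, was at -0.05 with retinoic acid (limma adjusted p = 0.821). The rises of Ndufs4, Ndufb8 and Ndufa10 therefore rest on 1 probe each. For retinoic acid against IL-1α, the second probes of Cox4nb (0.376, adjusted p = 0.15) and Atp5k (0.187, adjusted p = 0.367) did not pass. Nor did the other probes of Ndufs4 and Ndufb8, whereas the second probe of Cox5b did (0.664, adjusted p = 0.0053). Between batches, the probes of Atp5f1 were called in opposite directions (1.48 and -0.72).

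Genes around the respiratory chain were counted in the same fit, where 18.6% and 18.1% of all genes rose and fell with retinoic acid and 15.1% and 15% with IL-1α. With arrays scaled to one median these shares were 19.5% and 10.5%, and 8.75% and 9.19%. Of 13 kept genes of electron carriers and exchangers outside the symbol rule, 4 rose and none fell with retinoic acid, and 3 rose and 2 fell with IL-1α. Cyc1, the cytochrome c1 of complex III, rose with both (0.81 and 0.64), as did Cycs, cytochrome c itself (0.62 and 0.44). Slc25a5, an ADP/ATP carrier, rose with retinoic acid (0.55). Atpif1, the inhibitor of complex V, rose with retinoic acid (0.32) and fell with IL-1α (-0.38). Of 6 kept genes of the mitochondrial genome, none was called with retinoic acid (1 higher and 1 lower at an unadjusted p under 0.05) and 1 fell with IL-1α, mt-Nd1 at -0.68.

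Of 17 kept assembly factors outside the rule, 3 rose and 2 fell with retinoic acid and 7 rose with IL-1α, none falling. Ecsit, which acts in complex I assembly, rose with both (0.59 and 0.55), as did Oxa1l, which inserts proteins in the inner membrane (0.44 and 0.58). Cox19, which handles copper for complex IV, rose with retinoic acid (0.77), and Bcs1l of complex III fell (-0.47). With arrays scaled to one median, 3 rose and none fell with retinoic acid, and 3 rose with IL-1α. Of 67 kept mitochondrial ribosomal proteins, which translate the subunits encoded in mitochondria, 17 rose and 4 fell with retinoic acid and 13 rose and 2 fell with IL-1α. With one median the splits were 25 to 0 and 6 to 0. Mrps11 rose with both (0.86 and 0.61), as did Mrpl34 (0.84 and 0.41), and Mrps18b rose with IL-1α (0.92, with retinoic acid at 0.22).

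Of the 13 tricarboxylic acid cycle genes, 4 rose and 1 fell with retinoic acid and 3 rose and 3 fell with IL-1α (4 to 0 and 1 to 1 with one median). Sucla2 rose with both (fitted differences 0.96 and 0.89), but it was not detected on the untreated arrays of batch 1, where it was at least 1.61-fold higher with retinoic acid and at least 2.01-fold with IL-1α. Suclg2, the GTP-specific counterpart of Sucla2, fell with both (-0.62 and -0.60). Of 8 genes of pyruvate entry, Pdk4, the kinase that switches off pyruvate dehydrogenase, had the largest change, 3.13 higher with retinoic acid (adjusted p = 2.61e-08). In all, 2 rose and 2 fell with retinoic acid (2 and 0 with one median), and none was called with IL-1α (1 higher and 2 lower at an unadjusted p under 0.05). Of 10 kept regulators of mitochondrial biogenesis, 3 rose and 1 fell with retinoic acid and 4 rose with IL-1α. Esrra, the oestrogen-related receptor alpha, rose with both (0.99 and 0.79), as did Nrf1 (0.37 and 0.54), and Tfb1m fell with retinoic acid (fitted difference -1.13), not detected on the retinoic acid arrays of batch 1, where it was at least 1.36-fold lower. Ppargc1a was detected on no array. Of 6 kept genes of mitochondrial oxidant defence, Sod2 rose by 1.51 with IL-1α and was at -0.51 with retinoic acid, where it fell in the fit with quantile scaling but no gene of this list fell with one median.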

How the data were processed

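RNA from 12 cultures was measured on Illumina mouse bead arrays. The authors deposited 1 raw bead intensity per probe and array, not yet normalized, with no background correction stated, and beside it a detection fraction. This deposited fraction rose with intensity (Spearman's rho 0.9956 to 0.9988), so it was read as 1 minus the detection p. In R 4.3.3 with limma 3.58.1, intensities were background-corrected, with the background inferred from the detection p. They were then offset by 16, quantile-normalized and log2-transformed (neqc), which can shift batches that differ in detected probes. The fit held the 18200 of 46632 probes detected (p under 0.05) on 4 or more arrays. lmFit and eBayes were fitted with treatment and a 4-level factor for batch and replicate number, as the study's methods describe. P-values were adjusted by Benjamini-Hochberg over all kept probes and called at 0.05. Every test is two-sided. A gene took its kept probe of highest mean. Effects that differ between batches were tested with a mean per treatment and batch, and batch differences with treatment and batch. A bound for a member undetected in 1 batch set the mean of the other batch against the lowest detected signal or the probe's own, whichever was higher.

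The number of arrays limits the precision. Fits were tested on simulated data. Values were given for up to 6 rises and 6 falls per comparison among members called with the same sign in all 4 pairs of batch and replicate number, for fixed core subunits and isoform sets, for members whose effect differed between batches, and for up to 3 called genes per added list. Members outside this rule were named after their values were seen. The members and lists were chosen with earlier results of these data known. The values of 1 member are not reported here. Promoter sequences are from RefSeq (GRCm38.p6).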

Additional observations from a re-analysis of the deposited data

Results flagged for a closer look

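For 3 members the difference between retinoic acid and IL-1α was not the same in both batches, by the limma test of that change. The batch 2 difference minus the batch 1 difference was -1.29 for Atp5k (adjusted p = 0.0194), -1.19 for Ndufb10 (adjusted p = 0.0205) and -0.77 for Cox4nb (adjusted p = 0.0357). Atp5k was not detected on either IL-1α array of batch 1, so its fitted change is no exact size. Cox4nb was at 1.02 in batch 1 and 0.24 in batch 2, and Ndufb10 was at 0.57 in batch 1 and -0.61 in batch 2. Batch and line cannot be told apart. Among 84 groups of 4 arrays tested for a single distant array, 0 had one.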

How the results depend on the processing

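No call of a named gene reversed under an alternative, but the batch split turned with the scaling, and the IL-1α median over members, 0.02, was -0.01 without the second IL-1α array of batch 2. Whether replicate numbers pair the arrays is not settled. Deviations of same-numbered arrays correlated at 0, 0.06 and 0.01 in batch 1 and 0.18, -0.11 and 0.39 in batch 2. With no replicate block but batch kept, 17 members rose and 4 fell with retinoic acid, 5 and 7 with IL-1α, and 12 and 2 for retinoic acid against IL-1α, so no count of members moved by over 1.5 times. The shares of all genes in that fit were 19.6% and 18.8%, 16.3% and 15.8%, and 16.8% and 17.3%. With no replicate block and no batch, the counts were 2 and 2, 1 and 0, and 0 and 0. Here 6.24% and 6.91%, 3.38% and 4.25%, and 6.23% and 5.58% of all genes were called. In batch 1 alone 11 members were lower with IL-1α, where 19.7% of all genes were. Retinoic acid against IL-1α gave 23 higher and 4 lower there (17.7% and 18.1% of all genes). In batch 2 alone the counts were 8 higher with retinoic acid, 2 and 1 with IL-1α, and 1 and 1 for retinoic acid against IL-1α. The shares of all genes were 15.1%, 7.52% and 9.3%, and 13.5% and 12.7%, in the same order. These fits hold fewer arrays. Scaling to one median moved the retinoic acid median from 0.21 to 0.36 while all genes moved from 0.01 to 0.13. It gave 3 lower with IL-1α, 1 lower for retinoic acid against IL-1α, 1 whose difference between treatments changed with batch, and a batch split of 37 to 10. In that fit 9.19% of all genes were lower with IL-1α and 8.07% for retinoic acid against IL-1α. Within-batch normalization gave a split of 44 to 6 and 1 IL-1α effect that differed between batches. With no background correction 7 rose with IL-1α, and effects differing between batches numbered 1, 1 and 6 for retinoic acid, IL-1α and their comparison. An offset of 50 gave 7, and 1, 1 and 7. Of all genes, 15.5% rose with IL-1α without background correction and 15.2% with the offset of 50. Probes detected on all 12 arrays gave 1 lower for retinoic acid against IL-1α and 14 higher in batch 2. A detection p under 0.01 gave 1 lower for that comparison and 1 IL-1α effect that differed between batches, and averaging probes gave 2 of the latter. Among all genes, 20.6% (all 12 arrays) and 20.4% (detection p under 0.01) were lower for retinoic acid against IL-1α. Counting only members detected on all 12 arrays, chosen after seeing the data, gave 1 lower for retinoic acid against IL-1α. The causes were not tested.

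Leaving out each array in turn gave 12 to 21 higher and 3 to 6 lower with retinoic acid (median 0.17 to 0.29), 2 to 5 and 3 to 8 with IL-1α (-0.01 to 0.08), and 6 to 15 and 1 to 3 for retinoic acid against IL-1α (0.11 to 0.22). Of all genes, 14.9% to 19.3% were higher and 14.9% to 18.3% lower with retinoic acid in these fits. The shares were 10.1% to 16% and 10.8% to 15.4% with IL-1α. For retinoic acid against IL-1α they were 13.2% to 16.5% and 13.2% to 17.4%. Batch counts were 21 to 24 and 32 to 34, and effects differing between batches 0 to 3, 0 to 2 and 0 to 4. Ndufa4 with both treatments, and Cox5a, Cox6a2 and Atp5s with retinoic acid, passed in all 24 alternatives, whereas Ndufb7 with retinoic acid was lost in 13 and Atp5g3 for retinoic acid against IL-1α in 12. Dim members such as Ndufa6 in batch 1 have only a bound there.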
